A study of Homo sapiens with 9 samples.

Results

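The ETV4-only regions of PC3 are places in the genome where a peak was called for ETV4 in PC3 cells and for none of 5 other factor libraries in 2 prostate cell lines. They were found by pooling 6 peak lists from chromatin immunoprecipitation followed by sequencing (ChIP-seq) and merging peaks that overlapped by 1 bp or more. Of the 24166 merged regions, 2188 (9.05%) held an ETV4 peak and nothing else. They made up 69.6% of the ETV4 peaks (Wilson 95% interval 67.98 to 71.2%), the other 955 of which overlapped another list. The regions were chosen by their overlap, or lack of it, between the called peaks of the 6 lists, so these counts describe the set and test nothing.

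ETV4, also called PEA3, is a transcription factor of the ETS family, whose members bind DNA through a conserved ETS domain. Together with ETV1 and ETV5 it forms the PEA3 subfamily, and in prostate tumours gene fusions can switch on ERG, ETV1 or ETV4. ETS proteins act downstream of RAS and MAP kinase signalling and often bind beside AP-1, a dimer of JUN and FOS family proteins to which JUND belongs.

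PC3 is an established line from a metastatic prostate carcinoma, and RWPE-1 is an immortalised prostate epithelial line that does not form tumours. In PC3, without retroviral expression, an antibody against ETV4 gave the list studied here, and an antibody against JUND gave the other PC3 list. In RWPE-1 without retroviral expression, antibodies against ETS1 and GABPA gave a list each. RWPE-1 cells with retroviral FLAG-ERG or FLAG-ETV1, precipitated with a FLAG antibody, gave the last 2 lists. The 6 lists held 27416 peaks, with 11.5% from ETV4 and 10.8% from JUND in PC3, and in RWPE-1 with 31.9% from FLAG-ETV1, 29.4% from GABPA, 8.44% from FLAG-ERG and 7.95% from ETS1. With a single library per factor there is no replicate error, and the intervals below cover counting error only. They treat peaks as independent, which neighbouring peaks are not. ETV4 was mapped with 1 antibody in 1 line. The input libraries and the FLAG control without an ETS protein were not analysed here, so unspecific precipitation as a source of ETV4-only regions was not tested. The lists give neither peak height nor depth, and a region called in 1 list can hold signal below the threshold in another.

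Most ETV4 peaks had no partner in the other lists, and those with one most often met JUND. JUND and none of the RWPE-1 lists shared 548 of the ETV4 peaks, or 17.4% (16.1 to 18.8%). An RWPE-1 list without JUND shared 232, or 7.38% (6.52 to 8.35%), and both kinds of list shared the other 175, or 5.57% (4.82 to 6.43%). The share found in a single list was 67.8% for JUND, the other PC3 list (66.1 to 69.5%). It was 72.2% for ETS1, 54.1% for FLAG-ERG, 82.8% for FLAG-ETV1 and 90.8% for GABPA. The lists differ in size and were called at unknown depth, so these shares are given side by side without a comparison.

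The ETV4-only regions stood close to the boundary of the rule in few cases. Of them, 16 had a peak of another list within 100 bp and 59 within 500 bp. The nearest were chromosome 11 at 72531356 to 72531848 (hg18), which touched a FLAG-ETV1 peak end to end, and chromosome 20 at 25425254 to 25425752, which touched a JUND peak in the same way. Next came chromosome 20 at 49507011 to 49507486, 5 bp from a JUND peak. They were followed by chromosome 3 at 15676766 to 15677265, 17 bp from a FLAG-ETV1 peak, and chromosome 17 at 72794368 to 72794867, 20 bp from a FLAG-ERG peak. Of the 955 ETV4 peaks outside the set, 22 overlapped another list by less than 100 bp, and the median overlap was 405 bp. The smallest overlaps were 5 bp with GABPA at 124273518 to 124274012 of chromosome 11 and 17 bp with GABPA at 12846006 to 12846501 of chromosome 3. The next were 26 bp with JUND at 26684008 to 26684489 of chromosome 21, 40 bp with FLAG-ERG at 34270595 to 34271094 of chromosome 21 and 44 bp with JUND at 63661422 to 63661921 of chromosome 10.

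ETV4-only regions were rare in the first rows of the ETV4 list and common in the last. The order of the rows is not described in the labels, and whether it follows peak strength cannot be told from the list. ETV4-only peaks made up 11 of the first 50 rows (22%, 12.8 to 35.2%), 31 of the first 100 (31%, 22.8 to 40.6%) and 228 of the first 500 (45.6%, 41.3 to 49.98%). By successive parts of 20% of the rows, 310 of 629 peaks, 439 of 629, 458 of 628, 483 of 629 and 498 of 628 were ETV4-only. The share therefore went from 49.3% (45.4 to 53.2%) in the first part to 79.3% (75.96 to 82.3%) in the last, a gap of 30.01 points (Newcombe 95% interval 24.9 to 34.9). The peaks shared with JUND alone went from 27.5% to 11.3% and those shared with JUND and an RWPE-1 list from 14.1% to 2.23%. Peaks shared with an RWPE-1 list but not with JUND changed less, from 9.06% (7.06 to 11.6%) to 7.17% (5.40 to 9.45%), with intervals that overlap.

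**Figure D1:**
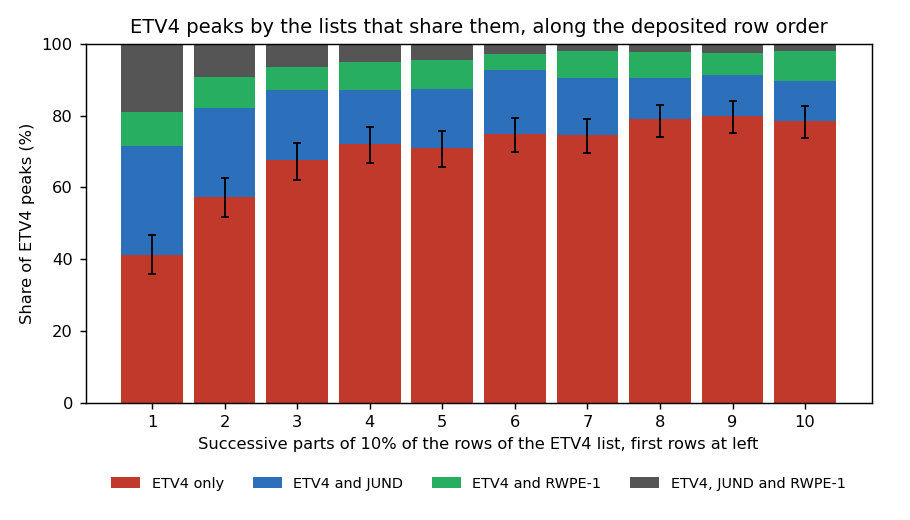
Share of ETV4 peaks (vertical axis, %) in successive parts of 10% of the rows of the ETV4 list (horizontal axis), divided by the lists that share them; black bars are Wilson 95% intervals of the ETV4-only share. The ETV4-only share rises from 41.3% in the first part to 78.7% in the last, while the parts shared with JUND shrink.

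The first ETV4-only peaks by row were spread over 5 chromosomes. Row 15 held 36965306 to 36965806 of chromosome 10, with another ETV4 peak 1.11 kb away and the nearest peak of another list, of JUND, at 57.5 kb. Row 26 held 165973042 to 165973540 of chromosome 2, with an ETV4 peak at 5.46 kb and a FLAG-ETV1 peak at 29.3 kb. Row 28 held 127709539 to 127710037 of chromosome 11, with an ETV4 peak at 1.24 kb and a JUND peak at 124 kb. Of these 5, 4 thus had another ETV4 peak within 6 kb. Row 29 held 39757285 to 39757784 of chromosome 14, the exception, with the nearest ETV4 peak 761 kb away and a FLAG-ETV1 peak at 175 kb. Row 34 held 49717025 to 49717522 of chromosome 20, with an ETV4 peak at 5.69 kb and a JUND peak at 4.99 kb.

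ETV4-only regions lay in groups more often than the JUND-only regions of the same cell line. A cluster was defined as a run of regions of 1 set in which the next lies within 20 kb. Of the 2188 ETV4-only regions, 442 (20.2%, 18.6 to 21.9%) lay in 196 clusters, of which 156 held 2 regions, 31 held 3, 8 held 4 and 1 held 5. Of the 2017 JUND-only regions, 217 (10.8%, 9.48 to 12.2%) lay in 105 clusters, of which 99 held 2. The difference was 9.44 points (Newcombe 95% interval 7.28 to 11.6). The ETV4-only share was the higher on 20 of 23 chromosomes. Differences in threshold or depth between the ETV4 and the JUND list were not tested.

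The same direction held in the other ways of counting that were tried on both PC3 lists. Counting every peak of each list, clusters held 28.0% of ETV4 and 19.1% of JUND peaks (difference 8.89 points, 6.77 to 10.999). Without chromosomes 3 and 10 the list-only values were 18.8% and 10.6% (difference 8.22 points, 5.91 to 10.5). With as many ETV4-only as JUND-only regions, 2017 of each, the ETV4-only share was 19.4% when taken from the first rows and 18.3% when taken from the last. Both choices keep most of the ETV4-only regions and overlap widely, so they are not separate from the main count. These 4 ways of counting were chosen after seeing the data. The nearest other ETV4-only region lay within 5 kb for 8.82% of the regions, against 3.87% among JUND-only regions, and within 100 kb for 44.7% against 31.6%.

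The sets from RWPE-1 differed in size, and their values did not strictly follow it. Clusters held 8.76% of the 1575 ETS1-only and 10.8% of the 1252 FLAG-ERG-only regions, which are smaller sets than the ETV4-only regions. They held 29.9% of the 7326 GABPA-only and 20.7% of the 7230 FLAG-ETV1-only regions, sets more than 3 times as large. Within 5 kb, the ETV4-only value of 8.82% was near that of GABPA-only regions (8.78%) and above that of FLAG-ETV1-only regions (6.14%). The median distance to the nearest region of the same set was 135 kb for ETV4-only, 228 kb for JUND-only, 223 kb for ETS1-only, 266 kb for FLAG-ERG-only, 76.7 kb for FLAG-ETV1-only and 49.7 kb for GABPA-only regions.

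**Figure D2:**
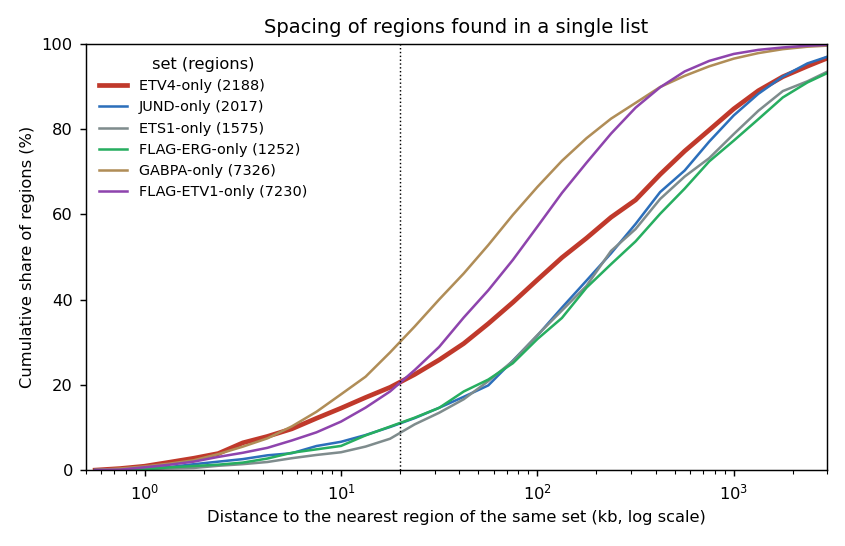
Cumulative share of regions (vertical axis, %) against the distance to the nearest region of the same set (horizontal axis, kb, log scale) for the 6 sets of regions found in a single list; the dotted line marks 20 kb. At 20 kb the ETV4-only curve reaches 20.2%, above the JUND-only, ETS1-only and FLAG-ERG-only curves and near that of the larger FLAG-ETV1-only set (20.7%).

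Peaks of the ETV4 list also lay close together outside the ETV4-only set. Another ETV4 peak of any kind lay within 20 kb of 26.3% of the ETV4-only peaks (24.5 to 28.2%) and of 31.8% of the 955 ETV4 peaks shared with another list (28.96 to 34.9%). The difference of -5.51 points had an interval of -9.03 to -2.07. It was -6.85 points (-14.3 to 0.742) in the first 20% of rows and -1.97 points (-6.02 to 1.89) in the others, and both of these intervals included 0. Within 100 kb, the difference was -5.88 points over all rows (-9.60 to -2.10), -10.5 points in the first 20% (-17.8 to -3.11) and -0.969 points in the others (-5.44 to 3.52). At that range it exceeded counting error in the first rows.

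Most clusters held ETV4 peaks alone, which follows in part from how the regions were chosen. By the rule no other list overlaps an ETV4-only region, so only the gaps between regions could hold other peaks. The same count was not made for the clusters of the other sets. No peak of another list fell inside 159 of the 196 clusters, while JUND had a peak inside 24, FLAG-ETV1 inside 12, FLAG-ERG and GABPA inside 6 each and ETS1 inside 4. The median cluster spanned 8814 bp from its first to its last ETV4-only region. The cluster with the most regions lay at 1054017 to 1080144 of chromosome 16 (26128 bp). It held 5 ETV4-only regions, and 2 further ETV4 peaks, together with 1 GABPA, 1 FLAG-ERG and 2 FLAG-ETV1 peaks, fell between them. There was no JUND peak within 100 kb of it.

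The 4 shortest of the 8 clusters with 4 regions are described next. The first lay at 37119083 to 37127695 of chromosome 14 (8613 bp), with its regions 808 to 2994 bp apart and, of the other lists, only 1 GABPA peak within 100 kb. At 42097895 to 42112219 of chromosome 7 (14325 bp), 4 regions formed 2 pairs, 1111 and 978 bp apart, and no peak of any other list lay within 100 kb. At 28918415 to 28936696 of chromosome 22 (18282 bp), 1 JUND peak fell among the 4 regions. At 35741291 to 35762166 of chromosome 9 (20876 bp), no other list had a peak inside, but ETS1, GABPA and FLAG-ETV1 had 3 each within 100 kb. The clusters on chromosomes 14 and 22 held no region from the first 500 rows of the list, whereas the one on chromosome 9 held rows 91, 195 and 446. Clusters thus occurred both among early and among late rows. The 4 longer clusters with 4 regions lay at 126354554 to 126378978 and 29550979 to 29589370 of chromosome 8, 53881570 to 53906101 of chromosome 10 and 41584046 to 41627577 of chromosome 18. A JUND peak fell inside each of these except the one on chromosome 18, and no RWPE-1 list had a peak inside any of the 4.

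**Figure D3:**
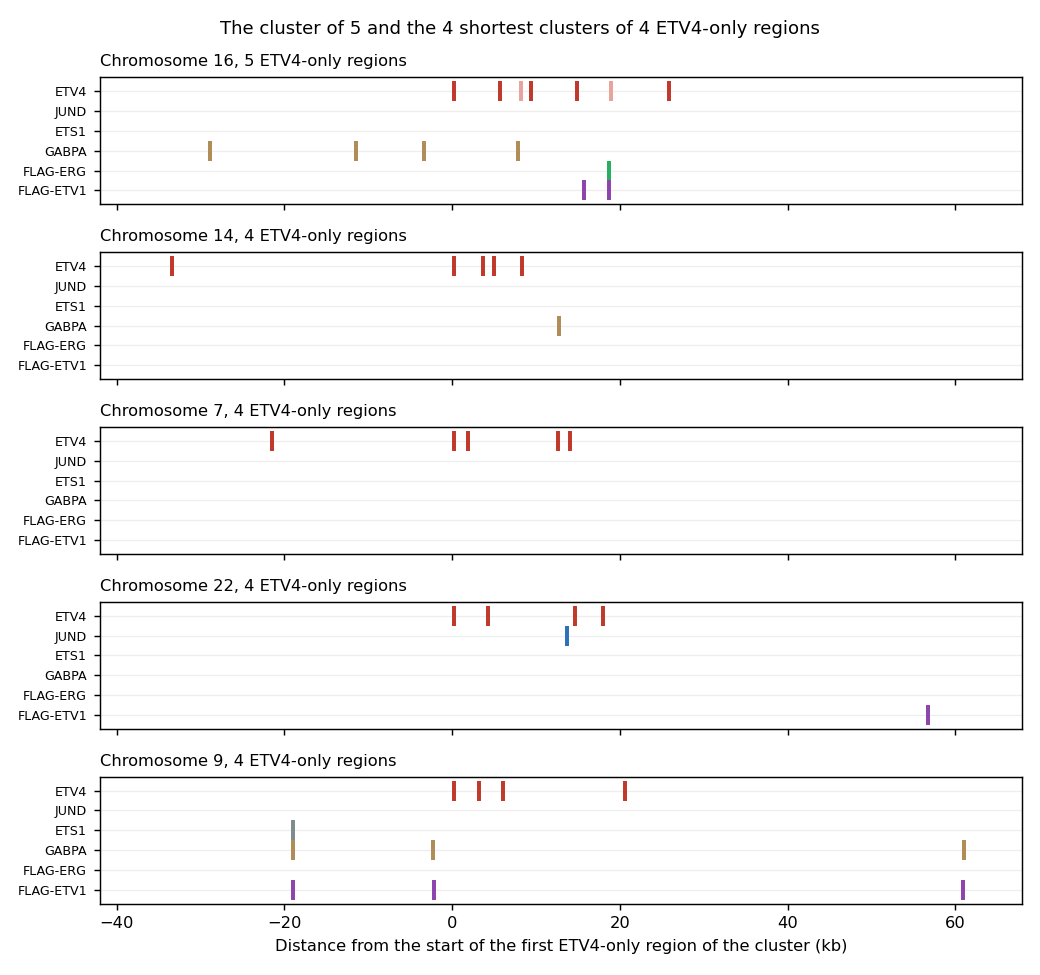
Maps of the cluster with 5 ETV4-only regions and of the 4 shortest of the 8 clusters with 4; the horizontal axis is the distance from the start of the first region (kb), and each tick is the midpoint of a peak in the list named at left. ETV4-only regions are dark red and ETV4 peaks that overlap another list are pale red; the chromosome 7 cluster shows 4 ETV4-only regions, a further one to their left and no other list.

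JUND, the other factor mapped in PC3, was the nearest neighbour of ETV4-only regions more often than its share of the peaks. JUND supplied the nearest peak of another list for 31.9% of the ETV4-only regions (29.98 to 33.9%), while it holds 12.2% of the peaks of the 5 lists. FLAG-ETV1 was nearest for 33.4% (36.0% of the peaks), GABPA for 22.99% (33.2%), FLAG-ERG for 6.31% (9.53%) and ETS1 for 5.39% (8.98%). A JUND peak lay within 10 kb of 271 regions (12.4%, 11.1 to 13.8%) and a FLAG-ETV1 peak within 10 kb of 222 (10.1%, 8.95 to 11.5%), although the FLAG-ETV1 list is the larger. GABPA came within 10 kb of 7.22%, FLAG-ERG of 4.89% and ETS1 of 2.33%. The median distance was 167 kb to JUND, 118 kb to FLAG-ETV1, 194 kb to GABPA, 601 kb to FLAG-ERG and 708 kb to ETS1.

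**Figure D4:**
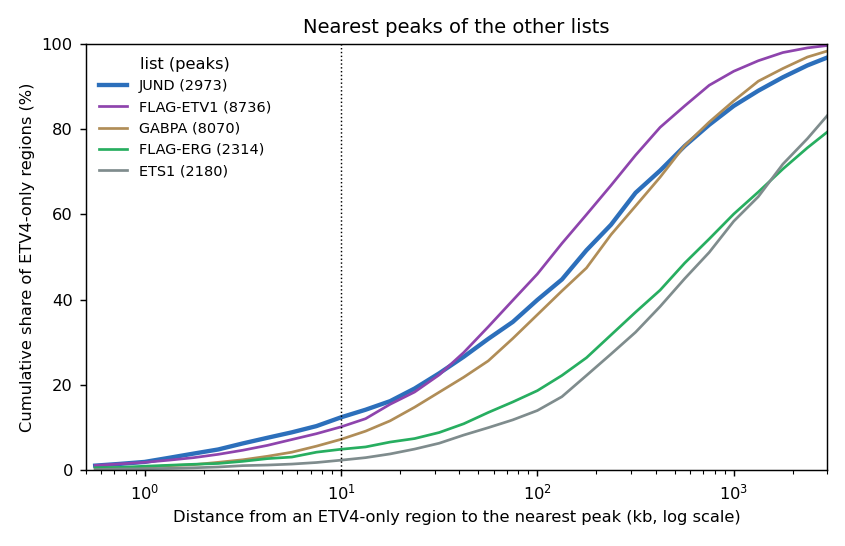
Cumulative share of the 2188 ETV4-only regions (vertical axis, %) against the distance to the nearest peak of each other list (horizontal axis, kb, log scale); the dotted line marks 10 kb. At 10 kb JUND is highest with 12.4%, ahead of FLAG-ETV1 with 10.1%, and at 100 kb FLAG-ETV1 is highest with 46.0% against 39.9% for JUND.

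The same surroundings were counted from the other side, as shares of each other set, which divides by set size but does not adjust for depth or threshold. Of the 2017 JUND-only regions, 6.59% lay within 10 kb of an ETV4-only region (5.59 to 7.76%) and 27.02% within 100 kb (25.1 to 29.001%). FLAG-ERG-only regions came next, with 3.59% (2.70 to 4.78%) and 20.1% (18.0 to 22.4%). ETS1-only, GABPA-only and FLAG-ETV1-only regions had 2.03%, 1.88% and 2.03% within 10 kb, with overlapping intervals, and 14.4%, 14.3% and 14.8% within 100 kb. JUND is both the AP-1 subunit and the only other factor mapped in PC3, so factor and cell line cannot be told apart in its value. Among the RWPE-1 sets, FLAG-ERG-only regions lay near ETV4-only regions more often than FLAG-ETV1-only regions. ETV1 and not ERG belongs to the subfamily of ETV4. By the rule, ETV4 peaks that overlap FLAG-ERG or FLAG-ETV1 are left out, so these values cannot bear on that relation.

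The distances of ETV4-only regions to the other factors were set beside those of ETV4 peaks selected for the same absence. Those peaks were also selected for overlap with another list, which the ETV4-only regions lack by the rule. How much of a difference comes from that selection was not tested, so these values describe the sets only. For JUND, the comparison was with the 232 ETV4 peaks that overlap an RWPE-1 list and no JUND peak. A JUND peak lay within 10 kb of 12.4% of the ETV4-only regions and 15.5% of those peaks (difference -3.13 points, -8.51 to 1.21). Within 100 kb the shares were 39.9% (37.9 to 42.01%) and 53.4% (47.03 to 59.8%), and the difference of -13.5 points (-20.1 to -6.76) exceeded counting error. It was -14.3 points in the first 20% of rows (-26.7 to -0.170) and -11.5 points in the others (-19.2 to -3.88). ETV4-only regions less often had a JUND peak within 100 kb than these peaks chosen for overlap with an RWPE-1 list, in both parts of the list.

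For the RWPE-1 factors, the comparison was with the 548 ETV4 peaks that overlap JUND and no RWPE-1 list. Within 10 kb, FLAG-ETV1 reached 10.1% of the ETV4-only regions and 9.85% of the ETV4 peaks with JUND (difference 0.292 points, -2.74 to 2.89). FLAG-ERG reached 4.89% and 5.66%, GABPA 7.22% and 5.66%, and ETS1 2.33% and 2.92%, each with an interval of the difference that included 0. Within 100 kb, FLAG-ETV1 reached 46.0% and 52.4% (difference -6.35 points, -10.99 to -1.67) and FLAG-ERG 18.6% and 22.8% (difference -4.16 points, -8.18 to -0.442). Within the last 80% of rows these differences were -4.50 points (-10.01 to 1.02) and -3.66 points (-8.42 to 0.632), and in the first 20% they were -7.80 points (-16.8 to 1.48) and -3.57 points (-11.7 to 4.06), all with intervals that included 0. The GABPA and ETS1 differences within 100 kb, -4.40 and -2.07 points, had intervals that included 0 over all rows.

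Against the JUND-only regions of the same cell line, ETV4-only regions less often had a peak of each of the 4 RWPE-1 factors within 100 kb. Within 100 kb, ETS1 reached 14.0% of the ETV4-only and 22.01% of the JUND-only regions (difference -8.03 points, -10.3 to -5.71). GABPA reached 36.5% and 47.6% (difference -11.2 points, -14.1 to -8.19), FLAG-ETV1 46.0% and 53.9% (difference -7.87 points, -10.9 to -4.85), and FLAG-ERG 18.6% and 23.3% (difference -4.61 points, -7.07 to -2.14). Within 10 kb, the interval excluded 0 for GABPA alone, with 7.22% and 9.42% (difference -2.20 points, -3.89 to -0.530). The intervals in these comparisons are not adjusted for their number. ETV4-only and JUND-only regions also differ in their chromosome shares, for which the differences were not adjusted.

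ETV4-only regions were unevenly spread over the chromosomes. Chromosome 3 held the most, 226 or 10.3% (9.12 to 11.7%), compared with 3.17 to 4.04% of the 4 list-only sets of RWPE-1 and 7.44% of the JUND-only regions. Chromosome 2 followed with 196 (8.96%), chromosome 8 with 175 (7.998%) and chromosome 10 with 167 (7.63%). On 17 of 23 chromosomes the ETV4-only share fell above (9 chromosomes) or below (8 chromosomes) the values of all 4 RWPE-1 sets. On 13 of these 17 the JUND-only share did so on the same side, so cell line and factor cannot be told apart there. The copy number of each chromosome in PC3 was not tested.

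Relative to the mean of the 5 other list-only sets, ETV4-only regions were most frequent on chromosome 18 (2.47 times), chromosome 3 (2.41 times) and X (2.19 times). They were least frequent on chromosome 16 (0.350 times), chromosome 19 (0.382 times) and chromosome 9 (0.429 times). Of the 5 sets in this mean, 4 come from RWPE-1. Relative to the JUND-only regions alone, the values were 1.30 times on chromosome 18, 1.39 on chromosome 3 and 1.30 on X. They were 0.768 times on chromosome 16, 0.799 on chromosome 19 and 0.940 on chromosome 9. The difference from the JUND-only regions had an interval that excluded 0 on 3 chromosomes. On chromosome 3 it was 2.89 points (1.17 to 4.61) and on chromosome 4 it was 1.61 points (0.473 to 2.75), with ETV4-only regions the more frequent. On chromosome 1 it was -3.61 points (-5.33 to -1.91), from 6.86% of the ETV4-only and 10.5% of the JUND-only regions.

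**Figure D5:**
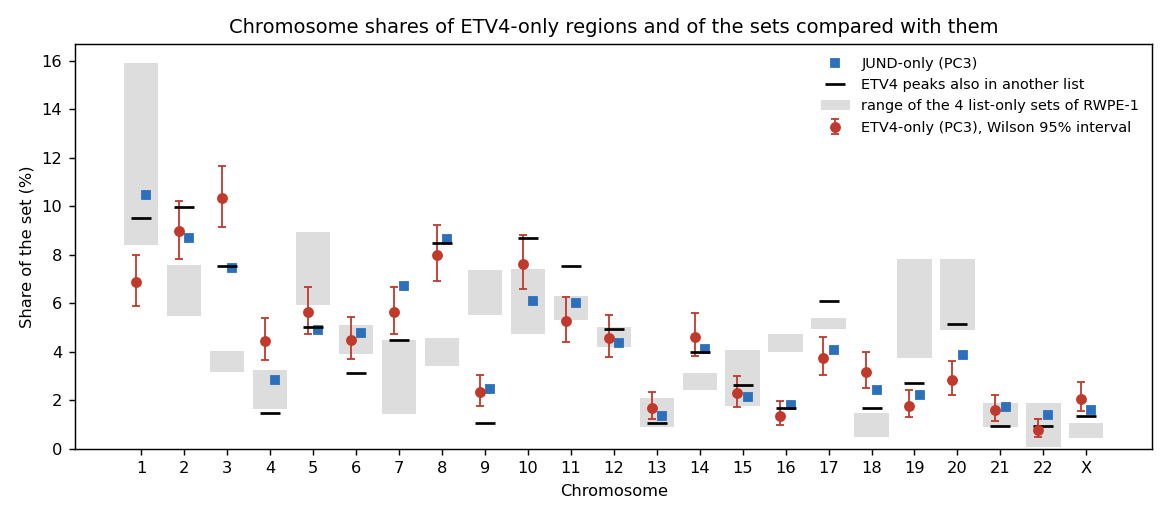
Share of each set (vertical axis, %) by chromosome (horizontal axis) for ETV4-only regions with Wilson 95% intervals, JUND-only regions, ETV4 peaks also found in another list, and the range of the 4 list-only sets of RWPE-1 (grey). On chromosome 3 the ETV4-only share of 10.3% stands above every other set shown, and on chromosome 9 both PC3 sets lie below the grey range.

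Within the ETV4 list, the share of peaks that were ETV4-only also differed between chromosomes. It was highest on chromosome 4, where 97 of 111 ETV4 peaks were ETV4-only (87.4%, 79.9 to 92.3%), followed by chromosome 9 with 51 of 61 (83.6%, 72.4 to 90.8%) and chromosome 18 with 69 of 85 (81.2%, 71.6 to 88.1%). It was lowest on chromosome 20 with 62 of 111 (55.9%, 46.6 to 64.7%), chromosome 17 with 82 of 140 (58.6%, 50.3 to 66.4%) and chromosome 19 with 39 of 65 (60%, 47.9 to 71.03%). Compared with the ETV4 peaks shared with another list, ETV4-only peaks were more frequent on chromosomes 3, 4, 9 and 18 and less frequent on 1, 11, 17 and 20, by 95% intervals of the difference that are not adjusted over the 23 chromosomes. Chromosome 4 held 4.43% of the ETV4-only and 1.47% of the shared peaks (difference 2.97 points, 1.71 to 4.08), and chromosome 20 held 2.83% and 5.13% (difference -2.30 points, -4.001 to -0.841). By the rule, the ETV4-only share depends on how many peaks the other lists hold on a chromosome, and it was not adjusted for that. Chromosomes 4 and 18 held 1.65 to 3.25% and 0.479 to 1.46% of the 4 list-only sets of RWPE-1. Chromosomes 17, 19 and 20 held 4.95 to 5.40%, 3.75 to 7.81% and 4.90 to 7.81%. Chromosome 9, with a high ETV4-only share, held 5.52 to 7.38%. Of the JUND-only regions, chromosomes 4, 9 and 18 held 2.83%, 2.48% and 2.43%. Chromosomes 17, 19 and 20 held 4.07%, 2.23% and 3.87% of them.

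The contrast between these chromosomes was also counted in the last 80% of rows, where 74.7% of all ETV4 peaks were ETV4-only. There the share was 88.6% on chromosome 4 (93 of 105 peaks), 83.8% on chromosome 18 (62 of 74) and 80.9% on chromosome 9 (38 of 47). It was 63.3% on chromosome 20 (50 of 79), 64.4% on chromosome 17 (65 of 101) and 61.5% on chromosome 19 (32 of 52). In this part of the list the 6 chromosomes kept their sides of the overall share. They had been picked by their share over all rows, most of which lie in this part, so the recount tests nothing. In the first 20% of rows, where the overall share was 49.3%, chromosome 19 changed sides, with 7 of 13 peaks ETV4-only (53.8%). The other 5 kept theirs there, with 13 of 14 on chromosome 9, 4 of 6 on chromosome 4, 7 of 11 on chromosome 18, 17 of 39 on chromosome 17 and 12 of 32 on chromosome 20. These rows also entered the choice of chromosomes, and several of the counts are small.

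At the scale of 1 Mb, ETV4-only regions fell into 1127 windows, of which 72 held 5 or more. The densest was 36000001 to 37000000 of chromosome 10, where 12 of 16 ETV4 peaks were ETV4-only. JUND had 7 peaks in it, FLAG-ETV1 1, and ETS1, GABPA and FLAG-ERG none. At 61000001 to 62000000 of chromosome 14, 10 of 13 ETV4 peaks were ETV4-only, with 7 JUND peaks and 1 to 3 peaks of each RWPE-1 list. At 27000001 to 28000000 of chromosome 7, 9 of 10 were ETV4-only, with 1 JUND, 3 GABPA and 5 FLAG-ETV1 peaks. At 128000001 to 129000000 of chromosome 8, 9 of 14 were, with 9 JUND, 7 FLAG-ETV1, 5 FLAG-ERG, 2 GABPA peaks and 1 ETS1 peak. At 63000001 to 64000000 of chromosome 10, 9 of 15 were, with 9 JUND peaks and 1 peak each of GABPA and FLAG-ETV1. The window at 64000001 to 65000000 of chromosome 10 also held 9, of 12 ETV4 peaks, with 4 JUND, 2 FLAG-ETV1 peaks and 1 ETS1 peak. Dense windows of ETV4-only regions thus differed widely in how much JUND and RWPE-1 binding surrounded them.

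At the other extreme, 15 ETV4-only regions had no peak of another list within 1 Mb. Farthest from any peak, ETV4 included, was 158099772 to 158100254 of chromosome 4, at 1.60 Mb. It was followed by 31066365 to 31066856 of chromosome 4 at 1.53 Mb, 61724607 to 61725102 of chromosome 18 at 1.45 Mb, and 81955382 to 81955871 and 123179534 to 123180022 of X at 1.37 and 1.29 Mb. None of these 5 came from the first 20% of rows, the earliest being row 1331. That part held 310 of the 2188 ETV4-only regions, so few of any 5 would come from it.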

How the data were processed

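An Illumina ChIP-seq kit was used for the libraries, per the labels' protocols. The authors deposited each list as 3 columns with the chromosome, start and end of every peak; the build is hg18, per the labels. No height, score or p-value comes with these positions. The sources used here name no aligner, peak caller, control or threshold. Starts were read as counted from 0 and are printed counted from 1. No row was repeated within a list. Samples were grouped by title, with 1 library per factor.

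Peaks of the 6 lists were merged where they shared at least 1 bp. Distances run from the end of one region to the start of the next. Shares carry Wilson and differences Newcombe 95% intervals; no test across samples was possible. Regions were named by these rules: the 5 clusters with the most regions (ties to the shorter span), the first 5 by row, the 5 nearest to the threshold on each side, the 5 most isolated, the 5 densest 1 Mb windows (ties to the first position), and the 3 highest and lowest chromosomes. The regions and rules were chosen with earlier results of these data known. The clusters and the window that these ties left out were added after their values were seen. Genes, motifs and sequences were not analysed here, because the gene and promoter tables at hand are on another build. The counting was tested on simulated lists with peaks of equal width and clusters of pairs only. Longer clusters and overlaps with several lists were not simulated. Analyses used Python 3.11.15, numpy 2.4.6, pandas 2.3.3 and matplotlib 3.10.9.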

Additional observations from a re-analysis of the deposited data

How the results depend on the processing

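Of 82 values recomputed over 19 alternative settings, 4 of them chosen after seeing the data, 62 stayed within the interval (or 1.5 times the count) of the value reported, 20 moved and 0 reversed. Only the gap between first and last rows and the ETV4-only minus JUND-only difference in clusters could reverse. Counts, shares and widths cannot change sign. The number of ETV4-only regions was 971 in the first and 1217 in the last 50% of the ETV4 rows, which hold fewer peaks by construction, and 1720 to 2421 under the other settings. Their share of the ETV4 peaks was 73.3% with a reciprocal overlap of 50%, 67.7% with peaks up to 500 bp apart joined, 56.9% with peaks up to 5000 bp apart joined, 77.03% with the ETV4 and JUND lists only, 72.3% without the FLAG-ETV1 list, and 61.8% and 77.4% in the first and last 50% of rows. The share in clusters was 16.5% with peaks up to 5000 bp apart joined, 22.2% with the PC3 lists only, 14.5% and 32.3% with cluster gaps of 10 and 50 kb, and 13.4% and 8.71% in the first and last 50% of rows, where fewer regions can be neighbours. The share within 10 kb of JUND was 14.7% with the reciprocal overlap and 3.97% with peaks up to 5000 bp apart joined, which removes near neighbours by construction. The median width was 490 bp in the first 50% of rows against 488 bp. The gap between the first and last rows was 37.4 points when each part held 10% of the rows. The densest 5 Mb window held 27 regions and the densest 1 Mb window 12. The chromosome 3 share stayed between 9.37% and 11.5%. No paired analysis was possible because each factor has 1 library, and no replicate could be left out for the same reason. Motif, gene-start and protein comparisons were not run. Depth is unknown, so absence from a list is absence from its calls only.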

Other observations

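ETV4-only peaks included more narrow calls than the other ETV4 peaks. Their median width was 488 bp (quartiles 471 and 496 bp) against 493 bp (482 and 498 bp) for ETV4 peaks shared with another list, and 12.2% against 6.39% were under 450 bp wide. In the first 20% of rows 5.81% and 2.51% were under 450 bp, and in the last 20% 12.7% and 6.15%. Wider peaks overlap others more easily, so width is not independent of how the regions were chosen.

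ETV4-only regions of early rows lay in clusters more often than those of late rows. By successive parts of 20% of the rows, 26.5%, 23.7%, 20.7%, 15.7% and 17.1% of them lay in clusters. A JUND peak lay within 10 kb of 15.8%, 13.9%, 11.1%, 9.52% and 12.9% of them, while their chromosome 3 share was 10.97%, 11.6%, 10.5%, 8.90% and 10.04%.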
